A study of Mus musculus with 2 samples.

Results

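The genes described here are the replication-dependent histone genes of the mouse, taken as every gene symbol that begins with Hist1h, Hist2h, Hist3h or Hist4h and had at least 20 unique molecular identifiers (UMIs, counts of captured RNA molecules) over both libraries. Of 47730 features, 71 had such a symbol and 60 had enough UMIs. The members were 5 of 6 H1 genes, 15 of 20 H2A genes, 16 of 20 H2B genes, 11 of 12 H3 genes and 13 of 13 H4 genes. The member nearest the limit was Hist1h2bl with 20 UMIs, and the nearest genes left out were Hist3h2bb-ps with 19 and Hist1h2ad with 18. The other 9 genes left out had 0 to 9 UMIs.

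Histones H2A, H2B, H3 and H4 form the core of the nucleosome, around which DNA is wound, and H1 is the linker histone that binds where DNA enters and leaves it. A dividing cell needs a new set of histones for each copy of its genome, and most of them come from clustered genes that are transcribed during S phase. The RNAs of these genes usually carry no poly(A) tail. They end a few bases after a stem-loop that is bound by the protein Slbp, and they are degraded when DNA synthesis stops. Some histone genes also make polyadenylated RNAs, which can be found in cells that no longer divide. A kit that primes on poly(A) tails, such as the one used here, captures the stem-loop form poorly, so the UMIs of these genes are no measure of their total RNA.

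The stem-loop is the sequence the family shares, and a search of the annotated transcripts (GENCODE M21, build GRCm38) found it in 40 of the 60 members. It is 16 bases long and is given here as DNA, 5′ to 3′, with the 4 bases of the loop in capitals. The first form was in 21 members of types H1, H2A, H2B and H3, the second in 7 H4 genes and the third in 5 H2B and H3 genes. The fourth was in the H4 genes Hist1h4i and Hist2h4.
Hist1h2ap and 20 others: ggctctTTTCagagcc
Hist1h4d and 6 others: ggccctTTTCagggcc
Hist1h3c and 4 others: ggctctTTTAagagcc
Hist1h4i and Hist2h4: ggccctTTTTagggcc
In the first and the second form the loop was the same and the stem differed. The other 5 members with a stem-loop held 4 rarer forms, among them Hist1h4b and Hist1h4j, with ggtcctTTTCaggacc. A match is a description of the annotated transcript and not evidence that the RNA is processed there.

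The data come from 2 single-cell libraries of immune cells taken from tumours of C57BL6\J mice. Both groups were ovariectomised, and 1 received placebo and the other E2, the usual abbreviation of estradiol. White blood cells were sorted alive by their surface protein CD45 before the 3′ droplet libraries (10x Genomics Chromium) were made. The sources used here do not give the tumour type, the age of the mice, how many were used, or the dose and duration of E2. With 1 library in each group the spread between animals is unknown, no test was run, and every interval below covers counting error only.

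There were 3505 placebo barcodes with 24545595 UMIs and 5791 E2 barcodes with 52628133 UMIs. After removal of shallow barcodes and likely doublets, 3111 placebo and 5153 E2 cells fell into an immune class by their marker genes. These names rest on markers alone and are therefore written as T-like and so on. Genes outside the marker lists followed the classes to different degrees. Clec4d, a lectin receptor of myeloid cells, was detected in 86.7% of placebo neutrophil-like cells and 11.6% of the other cells. Monocyte/macrophage-like cells were set apart less. In the E2 library Fcer1g was found in 97.3% of them and 64.2% of the other cells, and Ctss in 98.2% and 54.0%. A UMI of Ptprc, the gene of CD45, was found in 93.3% of the gated cells. The E2 cells were deeper, with medians of 5469 placebo and 8182 E2 UMIs. A total of 95 barcodes occurred in both libraries. Among placebo T-like cells 8 such barcodes held 26.1% of the member UMIs, and the main sums, counts and genes of T-like and of all gated cells are also given without these shared barcodes. Other values, such as each gene's share of UMIs in cycling cells, include them.

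The 60 members held 9104 placebo and 25565 E2 UMIs. H2A genes held 42.8% of them, H1 genes 19.8%, H2B genes 16.5%, H4 genes 14.9% and H3 genes 6.01%. Hist1h2ap led with 6518 UMIs, followed by Hist1h2ae with 3661, Hist1h2bc with 2922, Hist1h1c with 2429, Hist1h1b with 2053, Hist3h2a with 1951, Hist1h4d with 1866 and Hist1h1e with 1817. In the annotation 58 members were found, 46 on chromosome 13, 9 on chromosome 3, 2 on chromosome 11 and 1 on chromosome 6. These genes are near copies of each other, so reads may be divided among them or lost. In 26 members more than 50% of all stretches of 60 bases also occurred in another gene, and the value for Hist1h2ap was 92.9%, against 39.2% for Hist1h2ae, 28.1% for Hist1h2bc, 7.59% for Hist1h1c and 0% for Hist1h1b. Another gene overlapped 21 of the members. A pair of identifiers share the symbol Hist2h2bb and were kept apart, 1 of them annotated as a lincRNA, and Hist1h2al is annotated as a processed pseudogene. Sums over a type are less exposed to the division of reads than single genes, but lost reads are missing from the sums too.

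Cells were called cycling when Mki67 and Top2a, genes of proliferating cells, had at least 2 UMIs together. This gave 200 of 3111 placebo cells (6.43%) and 398 of 5153 E2 cells (7.72%). Levels are in CPM, which are the UMIs of a gene summed over the cells of a group and scaled to a common total of 1000000. Cycling cells were deeper, with medians of 11168 against 5233 UMIs in the placebo library and 15618 against 7827 in the E2 library, and held 11.4% and 14.0% of all UMIs.

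Over all gated cells pooled, most histone genes were far higher in cycling cells, in every histone type and in both libraries, but a small set was not. All members together stood at 1712 CPM in cycling and 179 CPM in other cells of the placebo library, a ratio of 9.57 (95% interval 9.16 to 10.0). In the E2 library they stood at 2227 and 192 CPM, a ratio of 11.6 (11.3 to 11.9). Of 59 members with at least 20 UMIs in gated cells, 50 were at least 2-fold higher in cycling cells in both libraries, and 4% of all genes were. None was 2-fold lower in both, against 3.26% of all genes. Without the barcodes found in both libraries the ratios of the sum were 7.94 and 11.6, and 48 members passed. The median log2 ratio of the members was 3.04 in the placebo and 4.12 in the E2 library, beside 0.00 and −0.04 over all genes. By type the count was 4 of 5 H1, 14 of 15 H2A, 12 of 15 H2B, 10 of 11 H3 and 10 of 13 H4 genes.

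Hist1h2ap, an H2A gene (13:21833026-21833507, minus strand, GRCm38), was the most abundant of them. It stood at 511 CPM in cycling and 6.24 CPM in other placebo cells, and at 608 and 5.54 CPM in the E2 library. The ratios were 81.9 (68.1 to 99.3) and 110, and without the shared barcodes 64.5 and 111. Hist1h2ae, a second H2A gene (13:23570517-23571220, minus strand), stood at 253 against 4.33 CPM and at 342 against 4.77 CPM, ratios of 58.5 and 71.7, or 42.9 and 71.7 without the shared barcodes. Cells outside the gate thus held little of either gene.

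Hist1h1b, a linker histone gene (13:21779883-21780625, minus strand), stood at 134 CPM in cycling and 1.21 CPM in other placebo cells, and at 204 and 1.69 CPM in the E2 library. Its ratios were 111 and 121, above those of Hist1h2ae, and 81.7 and 122 without the shared barcodes. Hist1h3c, an H3 gene, stood at 47.9 against 0.503 CPM and at 47.6 against 0.298 CPM. Hist1h4d, the leading H4 gene, stood at 97.0 against 7.69 CPM and at 132 against 8.57 CPM, ratios of 12.6 and 15.4. Its level outside the cycling gate was higher than that of Hist1h2ap. Hist1h2bj, an H2B gene, stood at 31.2 against 1.91 CPM and at 41.2 against 1.64 CPM.

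Another linker histone gene, Hist1h1c (13:23738808-23740367, plus strand), differed from Hist1h1b. It stood at 47.5 CPM in cycling and 29.6 CPM in other placebo cells, a ratio of 1.61, and at 57.4 and 26.6 CPM in the E2 library, a ratio of 2.16. Hist1h2bc, the H2B gene with most UMIs, stood at 47.2 against 22.2 CPM and at 44.8 against 39.7 CPM, ratios of 2.13 and 1.13. These values pool all classes. Neutrophil-like cells outside the gate held 89 and 497 of its UMIs, at 141 and 256 CPM. Within T-like cells it was at least 2-fold higher in cycling cells of both libraries, and within monocyte/macrophage-like cells it was not. Hist3h2a, an H2A gene on chromosome 11, was lower in cycling cells. Its levels were 12.1 against 22.7 CPM in the placebo library, a ratio of 0.533 (0.358 to 0.767), and 15.2 against 29.2 CPM in the E2 library, a ratio of 0.519 (0.418 to 0.638). It overlaps Trim17 on the same strand and Gm44313 on the other, so part of its reads may belong to another gene.

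**Figure D1:**
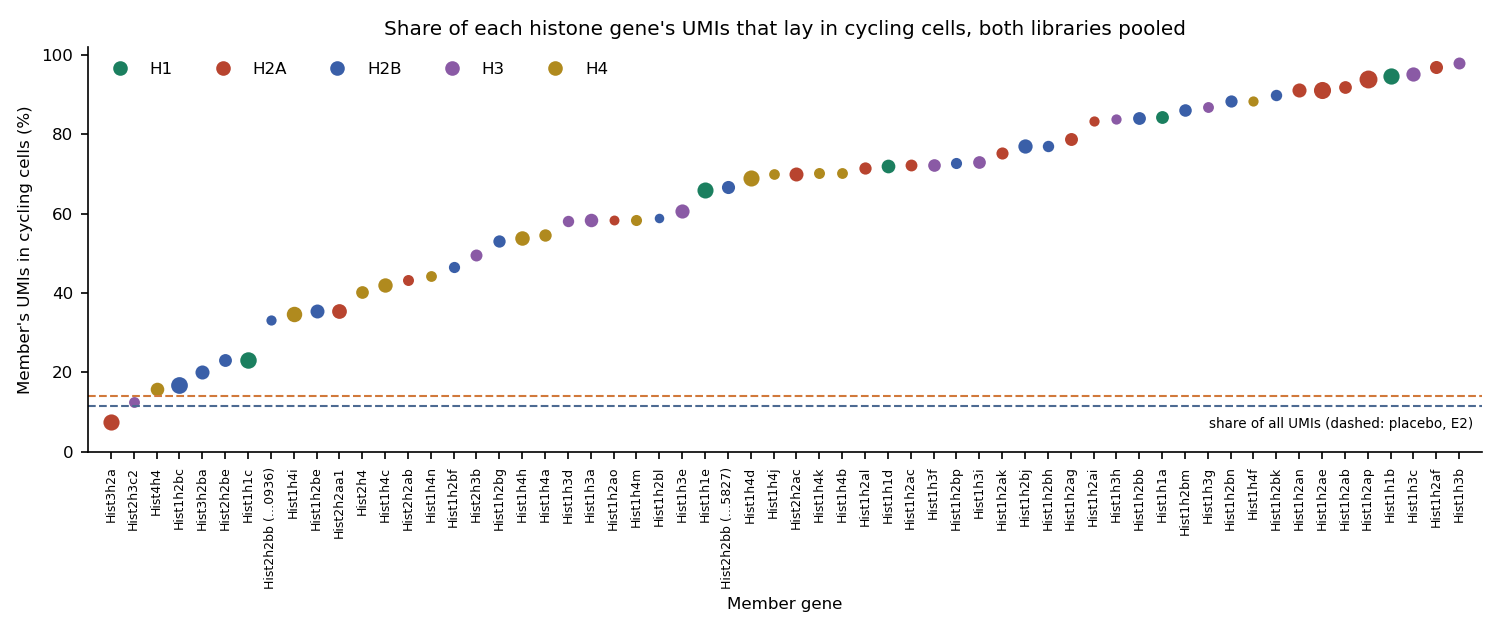
Share of each member's UMIs (%, vertical axis) that lay in cycling cells, over gated cells of both libraries pooled. Each point is 1 of the 60 members, ordered by share, coloured by histone type and larger with more UMIs. Dashed lines mark the share of all UMIs in cycling cells, 11.4% (placebo) and 14.0% (E2). The shares run from 7.40% for Hist3h2a to 97.9% for Hist1h3b, with a median of 70.0%.

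The share of a member's UMIs that lay in cycling cells puts all 60 on a common scale, as plotted above by gene. Cycling cells held 97.9% of the UMIs of Hist1h3b, 97.0% of Hist1h2af, 95.2% of Hist1h3c, 94.8% of Hist1h1b and 93.8% of Hist1h2ap. At the other end they held 7.40% of Hist3h2a, 12.5% of Hist2h3c2, 15.8% of Hist4h4, 16.9% of Hist1h2bc, 20.2% of Hist3h2ba, 23.0% of Hist2h2be and 23.1% of Hist1h1c. In all, 17 of the 60 members had under 50% of their UMIs in cycling cells. All 5 histone types had a member among those 17. The shares pool all classes, so they also vary with the classes that held a gene.

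The annotated 3′ ends of these genes differed too. In 20 members the gene model ended less than 100 bases after the stem-loop, and the median share of UMIs in cycling cells was 74.9%, with 3 members under 50%. In another 20 the model ran on for at least 100 bases past it, and the median share was 53.9%, with 9 members under 50%. Hist1h2ap ended 3 bases after its stem-loop and Hist1h3c 74 bases after, whereas the models of Hist1h1c, Hist3h2a and Hist4h4 ran on for 840, 1643 and 2445 bases. The groups overlapped widely, since Hist1h2ae ran on for 151 bases and had 91.2% of its UMIs in cycling cells, and Hist2h2aa1, which ended near its stem-loop, had 35.5%. No stem-loop was matched in 18 annotated members. In 9 of them the model held the coding sequence alone, so the stem-loop could not have been found, and the median share was 75.2% with none under 50%. In 7 the model also held untranslated bases, among them Hist1h2bc and Hist1h1b, and the median was 49.5%, with a range of 16.9% to 97.0%. The other 2 have no annotated coding sequence.

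Promoters are shown for a pair of linker histone genes that differed in their shares and for a pair of H2A and H2B neighbourhoods in which the partners did. Sequences are from RefSeq (GRCm38.p6), given 5′ to 3′ on the strand of the named gene and ending at the base before its start. Capitals mark the motifs searched on both strands, which are the CCAAT box (CCAAT, or ATTGG in reverse), the TATA box (TATAAA, or TTTATA), the octamer (ATTTGCAT, or ATGCAAAT) and the H1 box (AAACACA, or TGTGTTT). The first pair are linker histone genes, of which Hist1h1b had 94.8% and Hist1h1c 23.1% of their UMIs in cycling cells. The second pair are from the stretches between an H2A gene and the H2B gene that starts on the opposite strand. For Hist1h2ac 239 of the 250 bases between the annotated genes are printed.
Hist1h1b, 13:21780626-21780875, minus strand: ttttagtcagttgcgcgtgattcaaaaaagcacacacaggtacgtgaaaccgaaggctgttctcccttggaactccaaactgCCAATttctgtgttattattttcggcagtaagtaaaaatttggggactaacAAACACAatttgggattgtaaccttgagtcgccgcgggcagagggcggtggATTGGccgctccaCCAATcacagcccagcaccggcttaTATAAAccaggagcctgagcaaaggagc
Hist1h1c, 13:23738557-23738806, plus strand: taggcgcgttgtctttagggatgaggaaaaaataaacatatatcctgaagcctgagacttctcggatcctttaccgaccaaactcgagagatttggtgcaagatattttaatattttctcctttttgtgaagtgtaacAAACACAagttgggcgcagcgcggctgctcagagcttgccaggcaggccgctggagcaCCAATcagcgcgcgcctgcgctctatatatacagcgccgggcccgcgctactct
Hist1h2ae, towards Hist1h2bg, 13:23571221-23571395, minus strand: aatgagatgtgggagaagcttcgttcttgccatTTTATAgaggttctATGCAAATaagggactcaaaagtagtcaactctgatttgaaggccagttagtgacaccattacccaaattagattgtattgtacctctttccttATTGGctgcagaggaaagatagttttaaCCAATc
Hist1h2ac, towards Hist1h2bc, 13:23683960-23684198, minus strand: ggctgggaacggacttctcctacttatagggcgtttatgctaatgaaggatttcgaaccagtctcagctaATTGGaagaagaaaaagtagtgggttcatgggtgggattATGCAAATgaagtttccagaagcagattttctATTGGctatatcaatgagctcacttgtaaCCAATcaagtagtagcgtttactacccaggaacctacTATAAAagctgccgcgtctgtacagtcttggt

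Both linker histone promoters hold an H1 box, 117 bases before the start of Hist1h1b and 112 before that of Hist1h1c, and a CCAAT box 53 and 54 bases before. Hist1h1b has a TATA box 28 bases before its start, and these letters are not in the printed window of Hist1h1c. Near its end that window holds the letters tatatata, which the search for TATAAA did not cover. Of the 60 members 53 had a promoter in the RefSeq table, as a window of 250 bases before to 50 bases after the start. A CCAAT box was in 44 of the 53, in every H1, H2A, H2B and H3 promoter but in 3 of 12 H4 promoters, against 37.4% of all 32851 promoters. The octamer was in 5 of 13 H2A and 6 of 14 H2B promoters, in none of the other types, and in 1.74% of all promoters. Windows of H2A and H2B genes that start back to back overlap, so the same site can count for both partners. The TATA box was in 31 of the 53 and in 13.6% of all promoters. The H1 box was in 4 of 5 H1 promoters and in 7.18% of all promoters. These are matches of letters, not sites shown to be bound.

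There were 7 pairs of an H2A and an H2B member that start back to back, 175 to 295 bases apart. Their counts differed by ratios of 1.075 to 29.5. Hist1h2ae had 3661 UMIs and its partner Hist1h2bg 136, a ratio of 26.9, with 91.2% and 53.2% of UMIs in cycling cells. Between Hist1h2ac and Hist1h2bc the H2B gene was the higher, with 2922 against 99 UMIs, a ratio of 29.5, and it had 16.9% of its UMIs in cycling cells against 72.3% for Hist1h2ac. Hist2h2ac and Hist2h2be had 436 and 200 UMIs, with 70.0% and 23.0% in cycling cells. In the pair of Hist1h2ag and Hist1h2bj the shares in cycling cells were close, 78.8% and 77.0%. Hist1h2ak and Hist1h2bn had 120 and 129 UMIs, and Hist1h2bl and Hist1h2ai, both near the lower limit, 20 and 32. Some partners thus differed both in counts and in the cells that held them, while others were close. Counts of different genes are not scaled to length here, and capture of a gene depends on its 3′ end.

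By cell class the gap between cycling and other cells was widest in T-like cells, among the 4 classes with at least 10 cycling cells in each library. In 103 cycling and 1016 other placebo T-like cells the members stood at 2511 and 182 CPM, a ratio of 13.8 (12.8 to 14.9). In 94 and 830 E2 T-like cells they stood at 4009 and 200 CPM, a ratio of 20.1 (18.6 to 21.7). Without the barcodes found in both libraries the ratios were 10.4 (9.61 to 11.3) and 20.6, and 36 of 41 members passed. That placebo ratio was close to the 9.86 (8.53 to 11.4) of type 2 conventional dendritic (cDC2)-like cells with all barcodes. Among cycling T-like cells 5 placebo cells held 44.5% of the member UMIs, and 5 E2 cells held 25.5%. Of 42 members counted, 38 were at least 2-fold higher in cycling cells in both libraries, beside 4.49% of all genes, and none was lower (3.63% of all genes). The 4 others were Hist3h2a, Hist3h2ba, Hist4h4 and Hist2h4. Summed by type, H2A genes had the highest ratios, 34.5 placebo and 40.5 E2. The lowest placebo ratio was that of H4 genes, 5.27, which was 8.82 in the E2 library. H1 genes had ratios of 10.6 and 20.4, H2B genes 5.78 and 12.1, and H3 genes 12.7 and 23.6. Without the shared barcodes the placebo ratios were 24.6 for H2A, 10.6 for H3, 8.13 for H1, 4.73 for H2B and 4.498 for H4 genes. By the median log2 ratio of single members H2A genes led in the placebo library, at 4.72. In the E2 library their median of 4.94 was below those of H2B (5.28) and H3 genes (5.10).

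**Figure D2:**
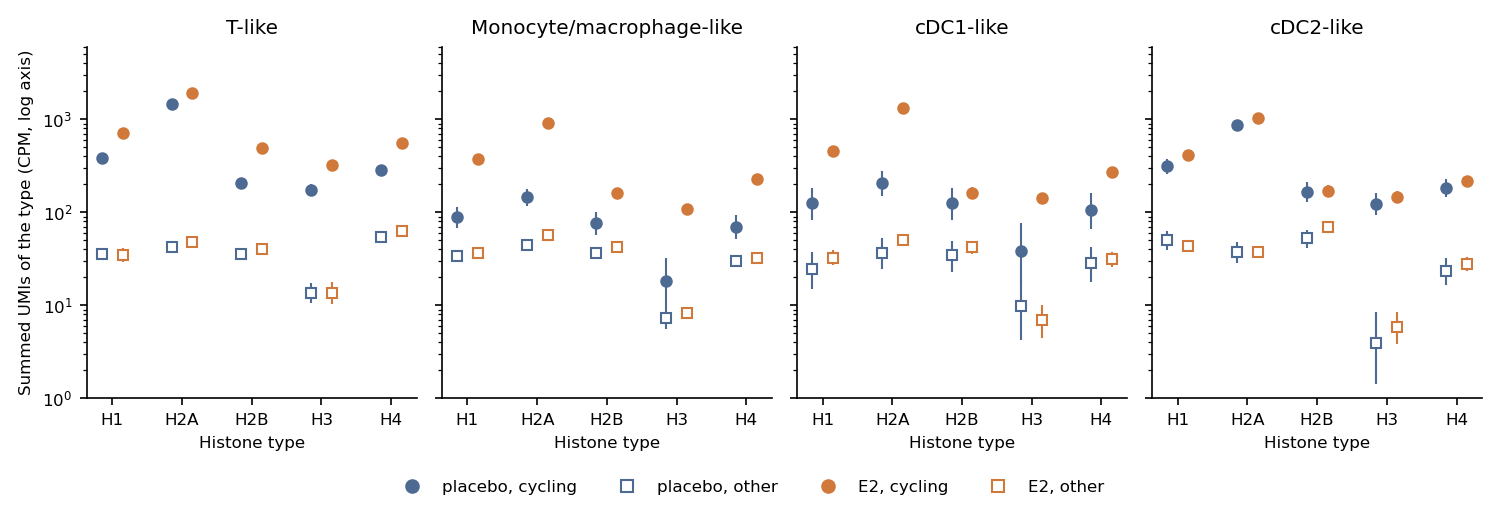
Summed UMIs of each histone type (CPM, log axis) in cycling cells (filled circles) and other cells (open squares) of each library and class, with 95% counting intervals. In T-like cells all 5 types stood higher in cycling cells of both libraries, and in monocyte/macrophage-like cells the placebo gap was the smaller one.

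Single genes in T-like cells did not all keep the order of their types. Hist1h2ap stood at 797 CPM in cycling and 9.82 CPM in other placebo T-like cells, and at 1008 and 9.08 CPM in the E2 library. Its ratios were 81.2 and 111, and without the shared barcodes 59.58 and 119. Hist1h2bc and Hist1h1c, which missed the 2-fold limit over all cells, passed it here. Hist1h2bc stood at 26.0 against 5.01 CPM and at 35.5 against 5.80 CPM. Hist1h1c stood at 44.3 against 17.0 CPM and at 81.2 against 19.7 CPM. Hist3h2a did not pass it, with ratios of 1.09 and 0.427.

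In monocyte/macrophage-like cells the 2 libraries differed. The 43 cycling placebo cells stood at 399 CPM and the 912 others at 152 CPM, a ratio of 2.62 (2.286 to 2.997), while the 131 cycling E2 cells stood at 1785 CPM and the 2186 others at 176 CPM, a ratio of 10.1 (9.68 to 10.6). Without doublet removal the placebo ratio was 4.23. Of 42 members counted, 20 were at least 2-fold higher in cycling cells of both libraries, beside 4.18% of all genes, and none was lower (1.32% of all genes). Hist1h2ap stood at 55.0 against 3.45 CPM in the placebo and 476 against 5.38 CPM in the E2 library. Hist3h2a was again lower in cycling cells, with ratios of 0.454 (0.194 to 0.910) and 0.516 (0.363 to 0.716). By type the placebo ratios ran from 2.10 for H2B to 3.23 for H2A genes, and the E2 ratios from 3.84 for H2B to 16.2 for H2A genes.

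Dendritic-like cells were fewer. In type 1 conventional dendritic (cDC1)-like cells the members stood at 602 CPM in 12 cycling and 134 CPM in 51 other placebo cells, and at 2350 CPM in 63 cycling and 163 CPM in 242 other E2 cells. In type 2 (cDC2)-like cells they stood at 1652 against 168 CPM and 1985 against 184 CPM, ratios of 9.86 and 10.8. At least 2-fold higher in both libraries were 7 of 29 members in cDC1-like cells and 24 of 33 in cDC2-like cells, beside 2.78% and 3.8% of all genes. None was 2-fold lower in both, against 0.659% and 1.18% of all genes. In both classes 5 placebo cells held over 90% of the member UMIs of cycling cells, 91.2% and 90.6%.

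Histone UMIs were concentrated in few cells. In the placebo library 40 of 3111 cells held 50% of the member UMIs, and in the E2 library 79 of 5153 cells did. No member UMI was found in 43.1% of placebo and 34.7% of E2 cells. Cells with at least 1000 CPM and 5 member UMIs, here called histone-high, numbered 72 and 220. Of these 39 and 141 were cycling, and they held 89.2% and 92.9% of the member UMIs of all cycling cells. Of the 33 and 79 that were not cycling, 6 and 47 were neutrophil-like. The cycling gate thus mixed a histone-high set with a larger number of cells at low levels, and the median cycling cell stood at 222 CPM in the placebo and 455 CPM in the E2 library.

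The share of histone-high cells among cycling cells was 20.4% (exact binomial 95% interval 13.1 to 29.5) in placebo and 40.4% (30.4 to 51.0) in E2 T-like cells, and without the shared barcodes it was 17.3% and 39.6%. In monocyte/macrophage-like cells it was 6.98% (1.46 to 19.1), which is 3 of 43 cells, and 34.4% (26.3 to 43.1), which is 45 of 131. Cycling monocyte/macrophage-like cells of the placebo library were also lower in the gate genes themselves, with Mki67 at 195 CPM against 417 CPM in the E2 library and Top2a at 105 against 333 CPM. Their summed S-phase list stood at 1042 against 1616 CPM and their G2 and mitosis list at 796 against 1971 CPM. The part of these differences in the histone values was not tested.

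The position of the cells in the cycle was described with the S-phase list (genes such as Mcm3 and Rrm2) and the G2 and mitosis list (genes such as Ccnb1 and Plk1). Cycling cells of each library were ordered by the share of S-list UMIs among both lists and divided into 3 equal parts. Histone UMIs were lowest in the cells richest in S-list genes. In the placebo library the members stood at 2576 CPM (2469 to 2686) in the part with the lowest S share, 2168 CPM in the middle and 498 CPM (454 to 547) in the highest. In the E2 library the values were 2644, 3545 and 694 CPM. Without the shared barcodes they were 2504, 1518 and 321 CPM in the placebo and 2674, 3610 and 624 CPM in the E2 library. Of 47 members counted, 33 were at least 2-fold lower in the highest than in the lowest part in both libraries, beside 2.58% of all genes, and none was higher (2.26% of all genes). The S list is made largely of genes that act at the start of S phase.

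**Figure D3:**
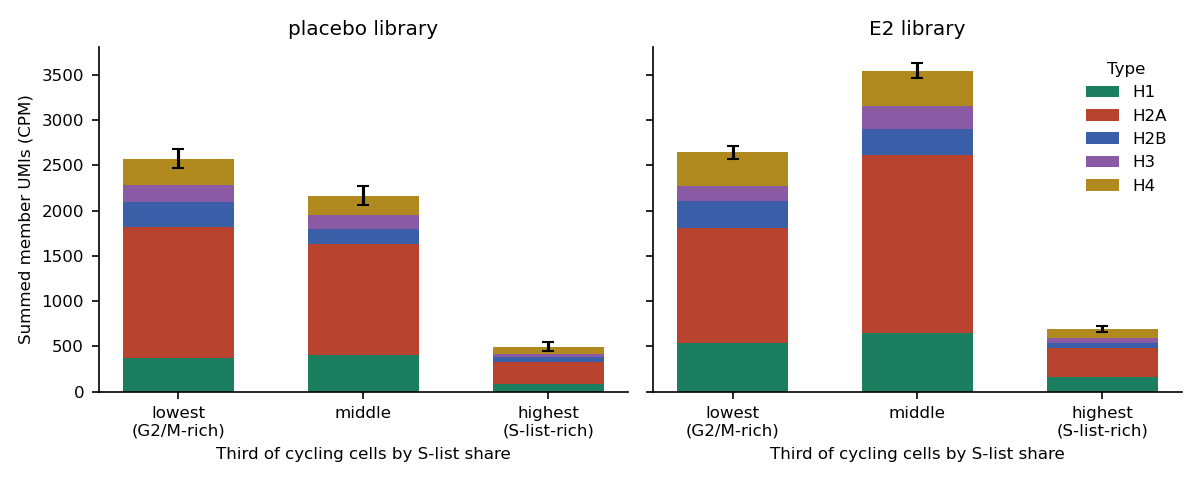
Summed member UMIs (CPM, linear axis from 0) in 3 equal parts of the cycling cells of each library, ordered by the share of S-list among S-list and G2/M-list UMIs, with bars stacked by histone type and a 95% counting interval on each sum. The part with the highest S share stood lowest in both libraries, at 498 CPM (placebo) and 694 CPM (E2).

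Hist1h2ap stood at 779, 687 and 104 CPM from the lowest to the highest S share in the placebo library and at 687, 1025 and 171 CPM in the E2 library. Without the shared barcodes the placebo values were 730, 471 and 55.7 CPM. Hist1h1b stood at 130, 244 and 38.6 CPM and at 225, 313 and 90.3 CPM, with the middle part the highest. Without the shared barcodes its lowest and middle placebo parts were close, at 134 CPM (110 to 162) and 152 CPM (125 to 184), and the E2 values were 231, 323 and 75.6 CPM. Hist1h2bc and Hist1h1c were highest in the lowest S share, that is, in the cells richest in G2 and mitosis genes. Hist1h2bc stood at 105, 32.0 and 6.62 CPM and at 82.5, 40.9 and 13.3 CPM. Hist1h1c stood at 86.3, 39.4 and 18.8 CPM and at 91.3, 66.0 and 18.4 CPM. Hist3h2a was nearly level, between 11.03 and 12.996 CPM and at 15.2, 13.8 and 16.3 CPM.

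Within classes the part with the highest S share again had the lowest sum, but in placebo monocyte/macrophage-like cells it was not separated from the middle part. In T-like cells the members stood at 2952, 3150 and 1549 CPM in the placebo library and 4176, 5455 and 1830 CPM in the E2 library. Without the shared barcodes the placebo values were 2768, 2171 and 610 CPM, and 19 of 26 members passed the limit given next. At least 2-fold lower in the highest part in both libraries were 11 of 28 members in T-like cells (3.14% of all genes) and 6 of 19 in monocyte/macrophage-like cells (2.43% of all genes). None was higher, against 2.03% and 1.35% of all genes. In the latter the sums were 641, 312 (241 to 397) and 291 CPM (228 to 365) in the placebo library, over 14 to 15 cells a part. In the E2 library they were 2406, 2676 and 333 CPM. From the middle to the highest placebo part H2A genes rose from 89.8 to 134 CPM, and H3 and H4 genes were also slightly higher. H1 and H2B genes were lower there.

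The genes that act on histone RNA and histone protein were described from lists. Of 21 genes counted of a list for histone RNA processing and transcription, 6 were at least 2-fold higher in cycling T-like cells of both libraries and none was lower, beside 4.49% of all genes higher and 3.63% lower. They were E2f1, E2f2, Cdk2, Ccne1 and Ccne2, which drive entry into S phase, and Eri1, an exonuclease that trims histone RNA. Slbp, which binds the stem-loop, did not pass, with 183 against 125 CPM in placebo and 188 against 115 CPM in E2 T-like cells, ratios of 1.46 and 1.63. Nor did Npat, the coactivator of histone transcription. In monocyte/macrophage-like cells 4 of 21 passed, beside 4.18% of all genes. They were Lsm11 (part of the U7 particle that cleaves histone RNA), E2f1, Ccne1 and Ccne2.

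Of 14 histone chaperones and their partners, which carry new histones to DNA, 3 passed in T-like cells (Asf1b, Chaf1a and Mcm2) and 5 in monocyte/macrophage-like cells (Asf1b, Chaf1a, Rbbp7, Hat1 and Mcm2), where 4.49% and 4.18% of all genes did. Genes listed as replication-independent variants mostly make polyadenylated RNAs, and their proteins can replace histones outside S phase. Of 10 such genes counted, 4 passed in T-like cells (4.49% of all genes), H2afz, H2afv, H2afx and Cenpa. H2afz stood at 2425 against 860 CPM in placebo and 3731 against 1080 CPM in E2 T-like cells, ratios of 2.82 and 3.45. H3f3a, which codes for H3.3, did not pass, at 1081 against 932 CPM and 1348 against 1133 CPM. Of the S-phase list 24 of 25 passed in T-like cells, all but Slbp, and of the G2 and mitosis list 23 of 23, again beside 4.49% of all genes.

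Outside the cycling gate the members made different profiles in different classes. Neutrophil-like cells were led by Hist1h2bc, at 141 CPM in the placebo and 256 CPM in the E2 library, where it made up 43.8% and 50.5% of their member UMIs. The same gene stood at 5.01 and 5.80 CPM in T-like cells and 22.7 and 30.3 CPM in monocyte/macrophage-like cells. Hist1h1c was also high in neutrophil-like cells, at 75.9 and 94.7 CPM, while Hist1h2ap stood at 3.16 and 1.54 CPM and Hist1h1b had 0 UMIs. Neutrophils are fully differentiated cells that do not divide, and 0 of 255 and 1 of 549 such cells were in the cycling gate.

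**Figure D4:**
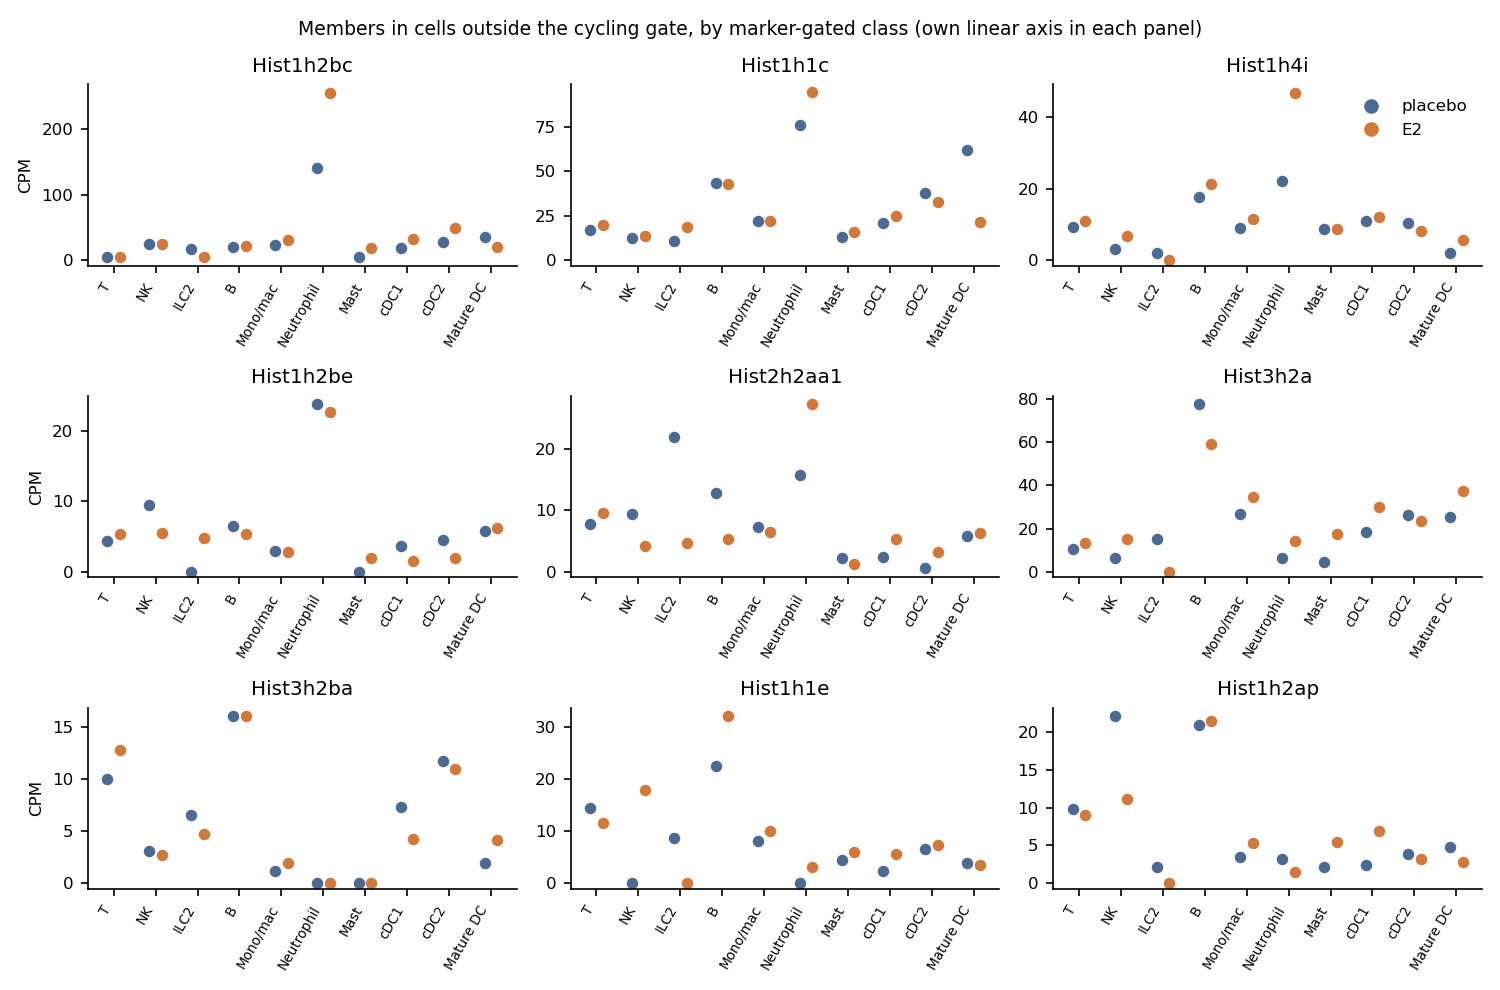
Levels of 9 members (CPM, each panel with its own linear axis) in cells outside the cycling gate, for 10 marker-gated classes (horizontal axis). Each point is 1 library, and no error is drawn. Hist1h2bc stood highest in neutrophil-like cells of both libraries, at 141 and 256 CPM, and Hist3h2a in B-like cells, at 77.3 and 59.0 CPM.

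Shares of cells with a UMI gave the same picture at equal depth. With each cell thinned to 2000 UMIs, Hist1h2bc was detected in 21.6% (15.9 to 28.3) of placebo and 39.3% (35.0 to 43.6) of E2 neutrophil-like cells. Before thinning the shares were 22.4% and 47.8%, and thinning left out 70 of 255 and 41 of 548 cells as too shallow. The share was 1.02% and 0.512% in T-like cells and 2.46% and 4.10% in monocyte/macrophage-like cells outside the gate. The neutrophil-like cells were the shallower, with medians of 2389 and 3122 UMIs against 4466.5 and 4172.5 in T-like cells. Hist1h2ap, in contrast, was detected in 20.4% and 33.3% of cycling T-like cells and in 0.541% and 0.197% of neutrophil-like cells outside the gate, which is 1 of 185 placebo and 1 of 507 E2 cells.

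Hist3h2a led in B-like and monocyte/macrophage-like cells outside the gate. In B-like cells it stood at 77.3 and 59.0 CPM, in monocyte/macrophage-like cells at 26.9 and 34.6 CPM, and in T-like cells at 10.6 and 13.1 CPM. Thinned shares were 16.7% and 11.3% of B-like cells and 0.541% and 3.35% of neutrophil-like cells. Its neighbour on chromosome 11, the H2B gene Hist3h2ba, stood at 10.0 and 12.9 CPM in T-like, 16.1 and 16.1 CPM in B-like and 1.19 and 1.92 CPM in monocyte/macrophage-like cells, and it had 0 UMIs in neutrophil-like and mast-like cells. The E2 values of B-like cells rest on 54 cells, with 11 UMIs of Hist3h2a and 3 of Hist3h2ba. T-like cells were led by Hist1h1c at 17.0 CPM in the placebo and by Hist1h4d at 20.2 CPM in the E2 library.

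Summed over all members, cells outside the gate stood between 88.6 CPM (mast-like) and 353 CPM (B-like) in the placebo library. In the E2 library they stood between 85.4 CPM (ILC2-like, group 2 innate lymphoid cells, 18 UMIs) and 507 CPM (neutrophil-like). The E2 library was compared with the placebo library in the same classes. The median log2 ratio of all genes was −0.17 over all gated cells, −0.11 in T-like and −0.06 in monocyte/macrophage-like cells, and member values are to be read against it.

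Histone UMIs were higher in the E2 library in T-like and monocyte/macrophage-like cells, with ratios nearer 1 in cells outside the cycling gate, and lower in B-like cells. Over all gated cells 15 of 59 members were at least 1.5-fold higher in the E2 library and 2 lower, beside 7.81% and 17.9% of all genes. The counts were 25 of 59 higher and 1 lower without the shared barcodes. In T-like cells the members stood at 583 CPM in the placebo and 1011 CPM in the E2 library, a ratio of 1.73 (1.66 to 1.81). Cycling cells alone stood at 2511 and 4009 CPM, a ratio of 1.597 (1.52 to 1.68), and the others at 182 and 200 CPM, a ratio of 1.10 (0.999 to 1.21). The share of T-like cells in the cycling gate was 9.20% (7.58 to 11.1) and 10.2% (8.30 to 12.3). Of 42 members counted, 31 were at least 1.5-fold higher and 1, Hist1h2al, was lower in the E2 library, beside 4.83% and 9% of all genes. Leaving out the shared barcodes gave 33 of 41 higher and 0 lower. In cycling cells 27 of 39 were higher and 1 lower (6.69% and 18.1% of all genes), and in other cells 3 of 20 were higher and none lower (4.21% and 8.45%).

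The size of the difference varied among members in cycling T-like cells. Hist1h2ap stood at 797 and 1008 CPM, a ratio of 1.27 (1.16 to 1.39), Hist1h1b at 203 and 328 CPM, a ratio of 1.61, and Hist1h1e, a linker histone gene, at 99.3 and 227 CPM, a ratio of 2.28 (1.81 to 2.91). The H2B gene Hist1h2bj stood at 57.8 and 155 CPM, and the H2A gene Hist2h2aa1 at 20.2 and 68.1 CPM. Hist1h2an, another H2A gene, had a ratio of 1.01. Without the barcodes found in both libraries the ratios were 1.797 for Hist1h2ap, 2.45 for Hist1h1b, 2.85 for Hist1h1e and 1.77 for Hist1h2an. The ratio of the sum was then 2.16 in cycling and 2.19 in all T-like cells, and in cycling cells 34 of 38 members were higher and none lower. With a cycling gate of 4 UMIs it was 1.20 in cycling cells, and with a pseudocount of 10 CPM the count of higher members in T-like cells was 10.

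In monocyte/macrophage-like cells the members stood at 170 CPM in the placebo and 322 CPM in the E2 library, a ratio of 1.89 (1.79 to 2.001). In cycling cells they stood at 399 and 1785 CPM, a ratio of 4.48 (3.95 to 5.10), and in the others at 152 and 176 CPM, a ratio of 1.16 (1.09 to 1.24). The cycling gate held 4.503% (3.28 to 6.02) of placebo and 5.65% (4.75 to 6.67) of E2 cells. Of 42 members counted, 27 were at least 1.5-fold higher and 2, Hist4h4 and Hist2h2be, lower (9.21% and 7.83% of all genes). In cycling cells 26 of 30 were higher and none lower (14.3% and 13.3%), and in other cells 8 of 29 were higher and 2 lower (8.03% and 8.02%).

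**Figure D5:**
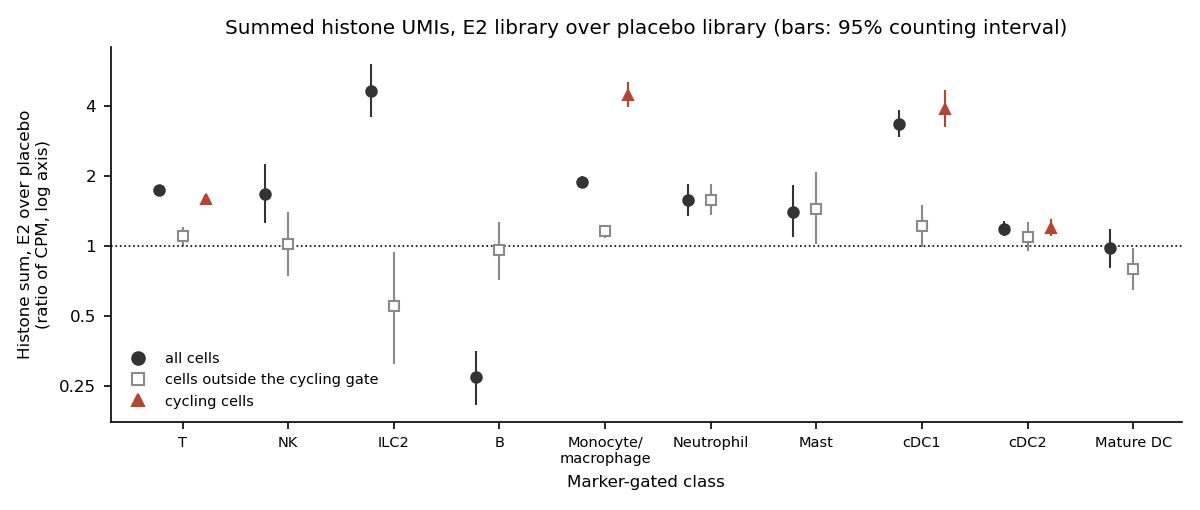
Ratio of the summed member CPM in the E2 library over the placebo library (log axis) in each class, for all cells, cycling cells and cells outside the cycling gate, with 95% counting intervals and a dotted line at 1. Cells outside the gate stood nearer 1 than cycling cells in T-like (1.10 against 1.597) and monocyte/macrophage-like cells (1.16 against 4.48).

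Hist1h2ap stood at 55.0 CPM (36 UMIs) in placebo and 476 CPM (1012 UMIs) in E2 cycling monocyte/macrophage-like cells, a ratio of 8.67 (6.22 to 12.4). Hist1h1b stood at 19.9 and 150 CPM, a ratio of 7.54, and Hist1h4d at 24.4 and 114 CPM, a ratio of 4.66. Hist1h2bc, Hist1h1c and Hist3h2a, which were among the members that missed the 2-fold limit between cycling and other cells over all classes, differed less. That limit drew on the same cycling cells, so the comparison is not independent of it. Hist1h2bc stood at 47.3 and 52.7 CPM, a ratio of 1.11, Hist1h1c had a ratio of 1.26 and Hist3h2a of 1.46. The placebo value rests on 43 cells, and 5 of them held 55.2% of its member UMIs. Without doublet removal the ratio of the sum in cycling cells was 2.69, and with each cell thinned to 2000 UMIs it was 3.08.

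In neutrophil-like cells the sum stood at 321 and 506 CPM, a ratio of 1.58 (1.35 to 1.84). Hist1h2bc stood at 141 CPM (89 UMIs) and 256 CPM (497 UMIs), a ratio of 1.81 (1.45 to 2.30), and Hist1h4i, an H4 gene, at 22.1 and 46.8 CPM. Hist1h1c, at 75.9 and 94.6 CPM, and Hist1h2be, at 23.7 and 22.6 CPM, were closer. Of 7 members counted 5 were at least 1.5-fold higher and none lower, beside 19.3% and 18.5% of all genes. Here a member difference of this size was less rare among all genes than in T-like cells.

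In cDC1-like cells the sum stood at 229 and 770 CPM, a ratio of 3.36, and 23 of 29 members were at least 1.5-fold higher and 1 lower (11.4% and 14% of all genes). The ratio was 3.90 in cycling cells, of which the placebo library held 12, and 1.22 (0.992 to 1.51) outside the gate. In cDC2-like cells it stood at 488 and 580 CPM, a ratio of 1.19, with 8 of 33 members higher and 4 lower (6.82% and 13%). In B-like cells it stood at 1238 CPM in 172 placebo cells and 338 CPM in 54 E2 cells, a ratio of 0.273 (0.208 to 0.353). The cells outside the gate held 219 of the 878 placebo UMIs, and the 8 cycling placebo B-like cells held the rest. Of 10 members counted none was higher and 8 were lower, beside 9.7% and 30.4% of all genes. No E2 B-like cell was in the gate, and outside it the ratio was 0.959 (0.713 to 1.27). In ILC2-like cells the sum stood at 151 and 701 CPM, with 18 of the 204 E2 UMIs outside the gate and the rest in 4 cells. In NK-like cells it stood at 186 and 312 CPM, with 0 placebo and 8 E2 cells in the gate, and outside the gate at 186 and 190 CPM, a ratio of 1.02 (0.746 to 1.41). It stood in mast-like cells at 159 and 224 CPM and in mature dendritic-like cells at 173 and 170 CPM. Outside the gate the ratio was 1.44 (1.02 to 2.08) in mast-like and 0.796 (0.650 to 0.977) in mature dendritic-like cells. For ILC2-like cells outside the gate it was 0.555 (0.311 to 0.942), from 70 placebo and 18 E2 UMIs.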

How the data were processed

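The authors deposited raw counts of UMIs per gene and barcode, made with Cell Ranger 3.1.0 on mm10, per the submitters' processing notes, and per the file headers with the same version. How barcodes were filtered before deposit and whether intronic reads were counted is not given in the sources used. Barcodes with at least 200 genes were kept (15 placebo and 26 E2 removed). Scrublet in scanpy 1.11.5 scored doublets in each library. Its automatic threshold marked 0.0860% and 1.49%, so 0.8% per 1000 barcodes were removed by score (98 and 268), leaving 3392 and 5497 barcodes, with medians of 5094.5 and 7880 UMIs. A cell joined the class, of 15 marker lists, with the highest fraction of markers detected and at least 3 distinct markers. This scoring rule was set after the files were seen.

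UMIs were summed per class, gate and library, and ratios of CPM carry exact conditional-binomial 95% intervals. Sums carry exact Poisson intervals and shares Clopper-Pearson intervals. These cover counting error only. An arm at 0 was set to a floor of 3 counts. Genes needed 20 UMIs over both libraries, and classes 30 cells in each library, or 10 cycling cells for values in cycling cells. A call was 2-fold in both libraries (cycling against other) or 1.5-fold (E2 against placebo), with no test, as each group held 1 library. The genes named were those with most UMIs, those that missed a call, and genes of the 5 other lists. For the ordering by S share, 1 was added to the UMIs of each list, and Slbp and Mcm2 were left out because another list holds them. The members and lists were chosen with earlier results of these data known. The ratios were tested on simulated counts. Of 47730 features 47310 matched GENCODE M21 by identifier. Python 3.11.15, NumPy 2.4.6, SciPy 1.17.1, pandas 2.3.3 and matplotlib 3.10.9 were used.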

Additional observations from a re-analysis of the deposited data

Results flagged for a closer look

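The summed histone UMIs of B-like cells were lower in the E2 library, with a ratio of 0.273, while those of T-like cells were higher, with a ratio of 1.73. The difference between the classes was not tested, as each group held 1 library. The B-like value moves with the cycling gate, which took in 8 of 172 placebo but 0 of 54 E2 cells. The ratio outside the gate was 0.959.

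Barcodes that fell in no class were not used in the comparisons, yet they held histone UMIs. In the placebo library 251 such barcodes stood at 610 CPM (541 to 685, 287 UMIs), and in the E2 library 216 stood at 1079 CPM (1002 to 1159, 741 UMIs). A count of 0 would have allowed up to 6.38 and 4.37 CPM. These barcodes were shallow, with medians of 646 and 796.5 UMIs, and 10 and 19 of them passed the cycling gate. Barcodes that matched non-immune markers were also left out, and there the order was the opposite, with 816 CPM in 30 placebo barcodes (423 UMIs) and 358 CPM in 128 E2 barcodes (430 UMIs).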

How the results depend on the processing

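The 10 alternative settings gave 114 values for 18 results. Among them all ratios of cycling to other cells and of E2 to placebo stayed above 1. In T-like cells outside the gate the E2 ratio was 1.10 (0.999 to 1.21), with no clear direction to reverse. Counts, and ratios of the highest to the lowest class, could not reverse. Of the values 69 were labelled close and 45 moved, and all that moved are given here. The close label took in 26 T-like members higher in cycling cells with a pseudocount of 10 CPM, against 38. It also took in an E2 highest-to-lowest ratio of 4.13 over mast-like cells, against 5.93 over ILC2-like cells. The ratios of cycling to other cells are given as T placebo, T E2, monocyte/macrophage placebo and monocyte/macrophage E2. They were 7.83, 13.3, 1.72 and 5.89 with a cycling gate of 1 UMI, 21.7, 22.7, 5.12 and 15.0 with a gate of 4, and 9.03, 16.8, 3.60 and 9.03 with cells thinned to 2000 UMIs. Without Hist1h2ap the T values were 9.98 and 15.7 and the monocyte/macrophage E2 value 7.66. Without doublet removal the monocyte/macrophage placebo value was 4.23, and without the barcodes in both libraries (added after seeing the data) the T placebo value was 10.4.

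The E2 to placebo ratios in T-like cells were 1.57 (all) and 1.92 (cycling) after thinning, 2.19 and 2.16 without the shared barcodes, and in cycling cells 1.75 without Hist1h2ap and, with gates added after seeing the data, 1.79 at 1 UMI and 1.20 at 4 UMIs. In monocyte/macrophage-like cells they were 1.61 and 3.08 after thinning, 1.68 and 3.81 without Hist1h2ap, 1.75 and 2.69 without doublet removal, and in cycling cells 3.82 and 3.48 with gates of 1 and 4 UMIs. Why these values moved was not tested.

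Counts of monocyte/macrophage members higher in cycling cells were 8 with a gate of 1 UMI, 12 with a pseudocount of 1 CPM and 4 with one of 10 CPM. Members higher in the E2 library numbered 10 in T-like cells with a pseudocount of 10 CPM, and in monocyte/macrophage-like cells 15 with a minimum of 50 UMIs and 17 and 5 with pseudocounts of 1 and 10 CPM. A pseudocount draws the ratios of low genes towards 1, and a higher minimum tests fewer genes. The 1 lower member of T-like cells became 0 with a minimum of 50 UMIs, with either pseudocount and without the shared barcodes. The 2 lower ones of monocyte/macrophage-like cells became 1 and 0 with pseudocounts of 1 and 10 CPM.

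No paired analysis was possible because each group held 1 library. Few cells lie behind the placebo cycling monocyte/macrophage-like, B-like and ILC2-like values. Differences between libraries cannot be told apart from differences between the mice, the sorts or the library preparations.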
